A study of Mus musculus with 2 samples.

Results

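The miR-26 family consists in the mouse of 3 hairpin genes, Mir26b, Mir26a-2 and Mir26a-1, each carried inside a gene of the Ctdsp family of small C-terminal domain phosphatases. The members were taken by name, as the miR-26 hairpins in Ctdsp1, Ctdsp2 and Ctdspl, and they are 3 of the 2202 annotated miRNA genes in the count tables. Their levels are described in the left cerebral cortex of female mice labelled as strain 5xFAD/CAST, adult and 8 to 10 months old, from The Jackson Laboratory. The measurements come from microRNA sequencing of total RNA with fragments under 30 nt. The labels form 1 group of 2 biological replicates, numbered 1 and 2. Their tissue samples differ but share a donor entry, and no label says whether separate animals were used, so the spread between the libraries may be technical. 5xFAD mice carry mutant human amyloid precursor protein and presenilin transgenes, driven by a neuronal promoter, and develop amyloid plaques. How the CAST background was combined with the transgenes is not given in the labels, and no mice without the transgenes are in the group.

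A miRNA hairpin is cut into a 5p and a 3p arm of about the same length. The arm that is kept guides silencing through its seed, bases 2 to 8, which pairs with target mRNAs. Members of the miR-26 family share their 5p seed, and Ezh2, a histone methyltransferase, is a known target. The Ctdsp phosphatases act as partners of the repressor REST, which silences neuronal genes in non-neuronal cells. In zebrafish, miR-26b represses the Ctdsp2 mRNA of its own host during neurogenesis.

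The mature sequences are shown because they decide which members the counts can tell apart. They come from RefSeq on GRCm38.p6, which held all 3 hairpins at the same coordinates as the annotation of the count tables. Capitals mark the seed.

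miR-26a-5p of Mir26a-1 and Mir26a-2: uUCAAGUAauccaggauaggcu

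miR-26b-5p of Mir26b: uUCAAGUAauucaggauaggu

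miR-26a-1-3p of Mir26a-1: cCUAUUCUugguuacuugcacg

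miR-26a-2-3p of Mir26a-2: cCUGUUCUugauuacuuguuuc

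miR-26b-3p of Mir26b: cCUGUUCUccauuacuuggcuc

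The 5p arms of Mir26a-1 and Mir26a-2 were the same 22 bases, whereas the 5p arm of Mir26b was found in no other of the 1005 RefSeq hairpins. Counted from 1 at the 5′ end and with the base of miR-26a-5p first, miR-26b-5p differed by C11U and C21U and was 21 bases long. The seed UCAAGUA occurred in 3 of 1738 RefSeq mature entries, those of the 3 members. The 3p arms were all distinct. The 3p arms of Mir26a-2 and Mir26b shared the seed CUGUUCU with each other and with arms of Mir6932 and Mir7039, while the 3p seed of Mir26a-1 occurred there alone.

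Identity between Mir26a-1 and Mir26a-2 ran past the arm itself. Their hairpins shared an unbroken run of 25 bases that began at the first base of miR-26a-5p. Of the stretches of 22 bases in each hairpin, 4 of 69 in Mir26a-1 and 4 of 63 in Mir26a-2 were found in the other. Mir26b shared 0 of its 64 stretches with any other hairpin, and its longest run in common was 11 bases with Mir26a-1 and 10 with Mir26a-2. Reads mapping to several places have a row of their own in the tables and are in no gene's counts. An exact 5p read of up to 25 bases therefore could not be assigned to Mir26a-1 or Mir26a-2. Each 3p arm was found in its own hairpin alone among the 1005 RefSeq hairpins, and the rest of the genome was not searched. The tables give 1 value per hairpin, with both arms summed, so the arm behind a count is not known.

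All 3 hairpins lay in introns on the strand of their hosts in mm10. Mir26b (ENSMUSG00000065468.1) is on chromosome 1 from 74394310 to 74394394, in intron 4 of the 7-exon Ctdsp1 transcript. That intron is 564 bases long and ends 245 bases after the hairpin. Mir26a-2 (ENSMUSG00000065430.1) is on chromosome 10 from 126995530 to 126995613, in intron 5 of the 8-exon Ctdsp2 transcript, and the next exon begins 241 bases downstream. Mir26a-1 (ENSMUSG00000065513.1) is on chromosome 9 from 119031796 to 119031885, in intron 5 of the 8-exon Ctdspl transcript, an intron of 3283 bases. In each of these full-length transcripts, 3 exons followed the intron with the hairpin.

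The Ctdsp2 locus has further transcripts that begin at the hairpin. The first exon of 2 shorter Ctdsp2 transcripts starts at position 126995613, the last base of Mir26a-2, so the overlap with exon sequence, in 1 of them a 5′ UTR, is 1 base. The hosts differ in size, at 5777 bases for Ctdsp1, 21259 for Ctdsp2 and 117546 for Ctdspl. Host mRNA was not measured in these libraries.

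**Figure D1:**
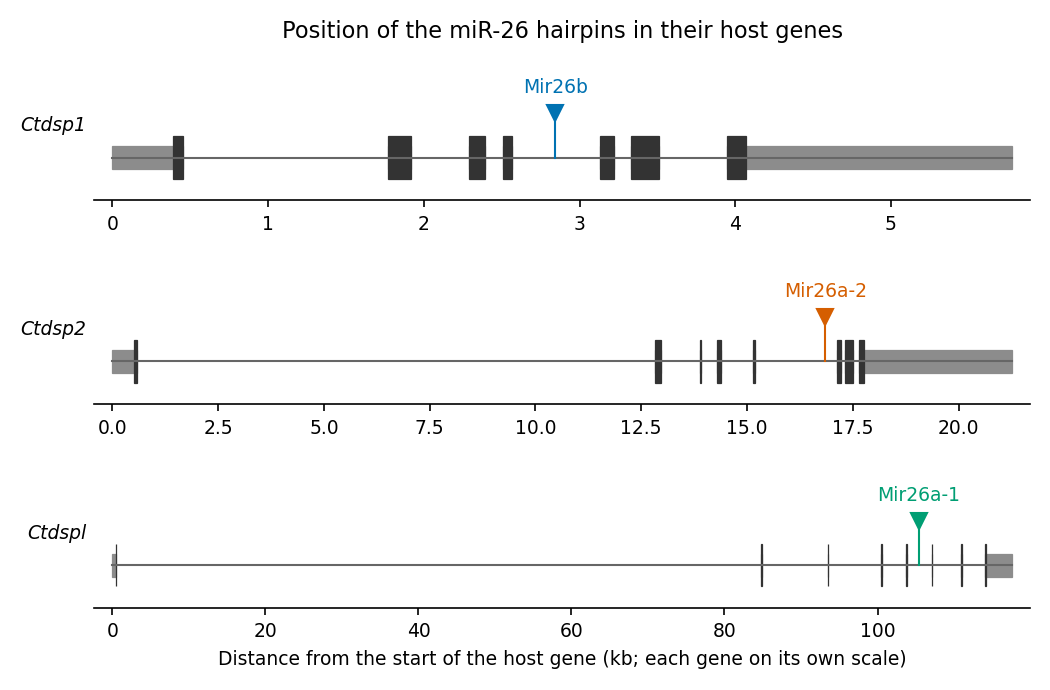
Position of each miR-26 hairpin (triangle) in the longest coding transcript of its host, against distance from the start of the gene in kb, with coding exons in dark boxes and UTRs in grey and each gene on its own scale. Each hairpin sits in the intron that is followed by 3 exons.

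The libraries held 4226300 counts on the strand of miRNA genes in replicate 1 and 5162369 in replicate 2. The rows that name no gene took 67.4% and 67.6% of the reads. Marker miRNAs of neural cells were present in the labelled tissue. Of 8 neuron markers 5 reached 10 CPM (counts per 1000000 counts on miRNA genes) in both libraries, and the other 3, the Mir124a genes, had between 0 and 3.68 CPM. All 3 astrocyte markers and both oligodendrocyte markers reached that level, between 2231 and 20609 CPM, though the listed astrocyte marker Mir143 is best known from smooth muscle. The muscle marker Mir1a-1 had 0 counts, while Mir206 had 38.6 and 52.3 CPM. These counts leave out reads that map to several places, so a low value for a gene does not show that its mature miRNA was absent.

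Mir26b was by far the most counted member and Mir26a-1 the least, in both libraries. Mir26b had 27685 counts in replicate 1 (exact Poisson 95% interval 27360 to 28013) and 28386 in replicate 2 (28057 to 28718). That is 6551 and 5499 CPM, with a mean of 6025 ± 744 (SD, n = 2), at rank 31 and rank 39 of 2202 genes. Intervals and limits given here cover counting error only, since reads made by PCR are not independent molecules. CPM values were not divided by hairpin length, because a read spans a whole mature arm.

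Mir26a-2 was the member with the largest difference in level between the libraries. It had 1952 counts in replicate 1 (1866 to 2041) and 65 in replicate 2 (50.2 to 82.8). On the CPM scale these levels were 462 and 12.6, at rank 125 and rank 305. The mean of 237 ± 318 CPM (SD, n = 2) has an SD larger than itself and describes neither library.

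Mir26a-1 was near the limit of 10 CPM used here for detection. It had 67 counts in replicate 1 (51.9 to 85.1) and 28 in replicate 2 (18.6 to 40.5). In CPM these levels were 15.9 and 5.42, with a mean of 10.6 ± 7.37 (SD, n = 2), so it passed the limit in replicate 1 alone. The level of Mir26a-2 in replicate 2 was below that of Mir26a-1 in replicate 1, 12.6 against 15.9 CPM, with overlapping counting intervals of 9.72 to 16.05 and 12.3 to 20.1 CPM. The values of these genes thus overlapped across the libraries, while those of Mir26b lay above every value of the other members.

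**Figure D2:**
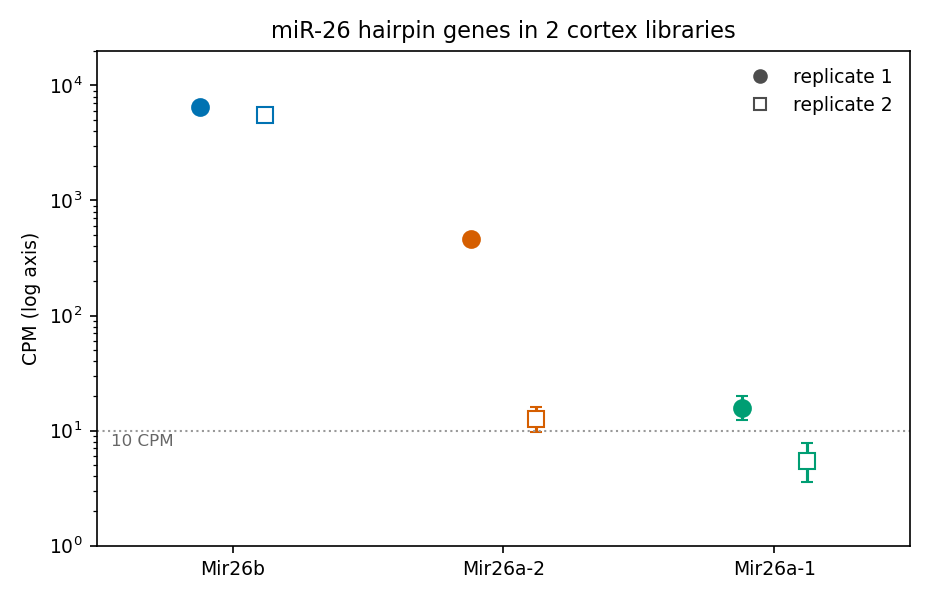
CPM (log axis) of the 3 miR-26 genes, with filled circles for replicate 1, open squares for replicate 2, exact 95% Poisson intervals as bars and the 10 CPM limit dotted. Mir26b stands at 6551 and 5499 CPM, Mir26a-2 at 462 and 12.6 and Mir26a-1 at 15.9 and 5.42.

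The family took 0.703% of the counts on miRNA genes in replicate 1 (exact binomial 95% interval 0.695 to 0.711) and 0.552% in replicate 2 (0.545 to 0.558), a mean of 0.627% ± 0.107 (SD, n = 2). Mir26b made up 93.2% of the family's counts in replicate 1 and 99.7% in replicate 2. Together the 2 Mir26a genes held 2019 of the family's counts in replicate 1, a share of 6.80% (6.51 to 7.09). In replicate 2 they held 93, a share of 0.327% (0.264 to 0.3999). These shares leave out exact miR-26a-5p reads of up to 25 bases, so they do not give the balance of miR-26a to miR-26b in the tissue.

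The ratios of members within a library need no scaling for depth. Counts of Mir26b were 14.2 times those of Mir26a-2 in replicate 1 (13.5 to 14.9) and 437 times in replicate 2 (343 to 566). Against Mir26a-1 they were 413 times as many in replicate 1 (325 to 533) and 1014 times in replicate 2 (701 to 1526). Mir26a-2 had 29.1 times the counts of Mir26a-1 in replicate 1 (22.8 to 37.7) and 2.32 times in replicate 2 (1.47 to 3.76). The order of the 3 members was therefore the same in both libraries, and each of the 3 ratios had counting intervals that did not overlap between them.

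No member had a count on the opposite strand in either library. The one-sided 95% limit that a count of 0 allows is 3 counts (3.69 by the two-sided Poisson interval used above), or 0.710 CPM in replicate 1 and 0.581 CPM in replicate 2. The unstranded column held the same counts as the stranded one for each member.

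By mean level, Mir26b stood between Mir324 at 6123 ± 317 CPM and Mir137, linked to the maturation of neurons, at 5889 ± 169 CPM (SD, n = 2 each). It did not differ from either beyond its own spread. Mir26a-2 stood between Mir153 at 242 ± 143 CPM and Mir669c at 235 ± 0.402 CPM, again well within its own spread. Mir26a-1 stood between Mir7046 at 11.0 ± 2.21 and Mir219a-1 at 10.4 ± 3.05 CPM (SD, n = 2 each).

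The genes nearest to each member over both libraries were found by the distance between log2(CPM + 1) values. For Mir26b they were Mir137 at a distance of 0.14, Mir92b at 0.19 and Mir324 at 0.26. For Mir26a-1 they were Mir3069 at 0.42, with Mir503 and Mir7224 tied at 0.42. For Mir26a-2 the nearest gene was Mir200b, best known from epithelia, at a distance of 2.12, followed by Mir3068 at 2.48 and Mir299a at 2.56. Mir200b had 138 CPM in replicate 1 and 30.6 in replicate 2, against 462 and 12.6 CPM for Mir26a-2. With 2 libraries, likeness rests on 2 values per gene.

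The design allows 1 comparison, replicate 1 against replicate 2, which compares those libraries and not conditions. All 3 members were called higher in replicate 1 by a two-sided exact binomial test on counts with Benjamini-Hochberg adjustment over 546 tested genes. The test allows for counting error alone, and it called 58.8% of the tested genes in either direction and 34.2% higher in replicate 1, so a call is common here. Differences of 2-fold or more were less common, at 25.3% of tested genes in either direction and 14.8% towards replicate 1, and Mir26a-2 and Mir26a-1 were among them. The median log2 ratio was 1.56 over the 3 members and 0.07 over all tested genes. With 3 members, that median is the value of Mir26a-1 itself, between 0.28 for Mir26b and 5.22 for Mir26a-2.

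Mir26a-2 differed most. Its ratio of replicate 1 to replicate 2, scaled by the trimmed mean of M-values (TMM), was 37.5 (exact 95% interval 29.3 to 48.8), and its log2 ratio with 0.5 counts added to each library was 5.22. Only 6 of 546 tested genes had a larger log2 ratio towards replicate 1. These were Mir302a, Mir302b, Mir302c, Mir302d, Mir3104 and Gm24197, which had 0 or 1 count in replicate 2, so Mir26a-2 was the first in that order with more than 1 count in both libraries. Of the 65 other tested genes with a mean level within 2-fold of that of Mir26a-2, 0 had a fold as large, and their median fold was 1.41. The largest fold among them was 26.6, for the erythroid Mir451a, in the other direction. That set is centred on a mean of 237 CPM, which describes neither library. The Mir302 hairpins, with means of 77.6 CPM or less, fall outside it.

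Mir26a-1 was 2.99 times as high in replicate 1 (1.90 to 4.82), with an adjusted p of 1.15e-06 by the exact binomial test and a log2 ratio of 1.56. That call was lost in an edgeR exact test that assumes a biological coefficient of variation (BCV) of 0.4 between libraries (adjusted p = 0.855), below the 0.481 estimated from these libraries. Of 87 other genes at a similar level, 10 had a fold as large. Mir26b was 1.22 times as high in replicate 1 (1.20 to 1.24), with a log2 ratio of 0.28, and its call was lost already at a BCV of 0.1 (adjusted p = 0.314 by the edgeR exact test). Of 38 other genes at its level 21 had a fold as large and 37 were called, with a median fold of 1.26.

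The libraries also differed in some of the cell type markers. The 4 Mir302 hairpins, markers of embryonic stem cells, summed to 423 CPM in replicate 1 and 0.194 CPM in replicate 2, where Mir302a, Mir302c and Mir302d were at 0. The 3 blood markers summed to 72.4 CPM in replicate 1 and 887 CPM in replicate 2. All 3 were called, against 58.8% of all tested genes, with Mir486 in the opposite direction to Mir451a and Mir144. The 8 neuron markers summed to 67128 CPM in replicate 1 and 42611 CPM in replicate 2, but the median log2 ratio of the 7 tested was 0.09. Mir132 had 40577 CPM in replicate 1 and 21189 in replicate 2, and Mir128-1 had 9000 and 3687, while Mir137 and Mir383 differed by 1.06-fold and 1.04-fold and Mir138-1 was higher in replicate 2. The endothelial marker Mir126a had 7756 CPM in replicate 1 and 13122 in replicate 2. The 2 oligodendrocyte markers summed to 7091 CPM in replicate 1 and 5329 in replicate 2. Both were called towards replicate 1, as were 34.2% of all tested genes, at 1.15-fold for Mir219a-2 and 1.66-fold for Mir338. The part of these markers in the ratio of Mir26a-2 was not tested.

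**Figure D3:**
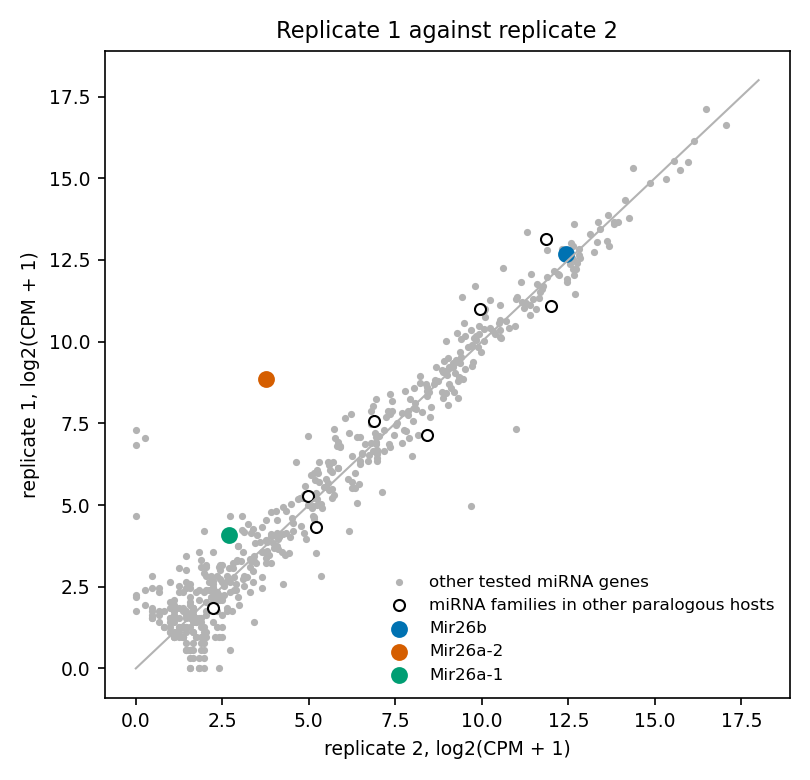
Levels of the 546 tested miRNA genes in replicate 1 (vertical) against replicate 2 (horizontal), both as log2(CPM + 1), with the line of equality. Mir26b and Mir26a-1 lie in the cloud of other genes, and Mir26a-2, at 462 CPM in replicate 1 and 12.6 CPM in replicate 2, lies far above it. Mir26a-2 is not alone there, as Mir302a, at 155 CPM in replicate 1 and 0 in replicate 2, lies further from the line.

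The split of Mir26a over 2 loci was set beside other pairs of loci that share exactly 1 mature arm in RefSeq, with at least 10 counts per gene in each library. This set was chosen after the values of the members were seen, and it is a description with no test. The ratio of Mir26a-2 to Mir26a-1 differed 12.6-fold between the libraries. Over the other 15 pairs, that change ran between 1.01 and 3.03, with a median of 1.18. The largest of these was for Mir92-1 and Mir92-2, and 2.34 was the largest among the 11 other pairs with at least 50 counts per gene in each library, a filter that the Mir26a pair itself would not pass, as Mir26a-1 had 28 counts in replicate 2. The ratio of the 2 loci also changed by more than 2-fold for Mir16, at 2.34, and for Mir24, at 2.02.

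**Figure D4:**
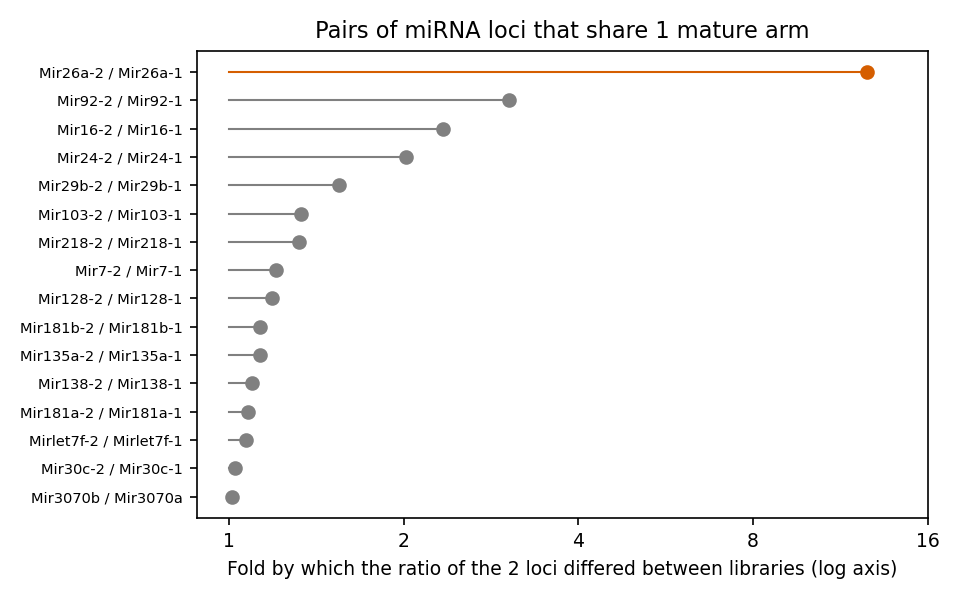
Fold by which the ratio of counts at 2 loci differed between the libraries (log axis), for 16 pairs of loci with 1 mature arm in common. The pair Mir26a-2 and Mir26a-1 stands at 12.6 and the other 15 pairs lie between 1.01 and 3.03.

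Genes with 1 shared arm were not lower by their median than genes with none. Among miRNA genes with 2 arms in RefSeq, 55 had 1 arm that was found in another hairpin, and their median level was 27.3 CPM, with 33 of them detected. The 579 genes with no such arm had a median of 2.69 CPM, and 206 were detected. The 23 genes with both arms found in another hairpin had a median of 0 CPM, and 4 were detected. Of the 55, 14 had a mean level above that of Mir26a-2 and 34 above that of Mir26a-1. Mir26b, which belongs to the 579, was exceeded by 26 of them. The groups hold different genes that were not matched, so whether a shared arm lowered the counts of a gene was not tested.

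Other miRNA families that lie in paralogous host genes gave a range of levels. Of 8 such genes, 7 were detected. The test called 3 of them higher in replicate 1, where it called 34.2% of all tested genes, and another 3 in replicate 2, where it called 24.5%. Their median log2 ratio was -0.06. In the miR-103/107 family, carried in Pank genes of coenzyme A synthesis, Mir107 had 2165 CPM in replicate 1 and 4082 in replicate 2. Mir103-2 had 18.9 and 35.6 CPM and Mir103-1 had 2.60 and 3.68, so that family held 1 well counted gene beside 2 loci with fewer counts that share a mature arm. All 3 had lower CPM in replicate 1 than in replicate 2, the opposite direction to the miR-26 genes, though Mir103-1 did not pass the test.

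The neuronal miR-128 is also made at 2 loci with the same 3p arm. Mir128-1 had 9000 CPM in replicate 1 and 3687 in replicate 2, and Mir128-2 had 2052 and 996. Both were called higher in replicate 1, at 2.49 and 2.11 times, and their ratio to each other was 4.39 in replicate 1 and 3.70 in replicate 2. Mir218-2, in a gene of the Slit family of axon guidance factors, had 189 and 117 CPM, against 37.6 and 30.6 CPM for Mir218-1. Mir153 was at a mean level close to that of Mir26a-2 but had 141 CPM in replicate 1 and 344 in replicate 2. These pairs of loci moved together between the libraries more closely than Mir26a-2 and Mir26a-1 did, with changes of 1.18-fold for Mir128, 1.32-fold for Mir218 and 1.33-fold for Mir103. Exact reads of the arm that each pair shares map to both loci and are in neither gene's counts, so these levels leave out that arm.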

How the data were processed

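The authors deposited raw read counts per miRNA gene for each library, with annotation M21 on mm10 per the file headers in the accompanying records. The sources used here name no trimming tool, aligner or counter. Columns hold unstranded, same-strand and opposite-strand counts, and same-strand counts were used. The unstranded column is not the sum of the other columns. In replicate 1, Mir219a-2 had 14689 same-strand counts, 0 opposite-strand counts and 0 unstranded counts. The 4 rows that name no gene stayed out of library sizes and tests. All 2202 IDs matched M21 names. Effects of strain variants on mapping were not analysed here.

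CPM was computed over same-strand counts. Libraries were scaled by TMM (edgeR 4.0.16). A two-sided exact binomial test (scipy 1.17.1) was run on each gene whose 2 counts summed to 10 or more, adjusted by Benjamini-Hochberg, with 0.05 as the threshold. With 1 library on each side, edgeR's quasi-likelihood test and DESeq2 (1.42.0, used for size factors) have no residual degrees of freedom. The comparison of replicate 1 with replicate 2 was tested on simulated counts of 546 genes, where 74.5% of the 200 genes given a 2-fold change were recovered and 0.578% of the others called. Simulated libraries varied by counting error alone.

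Members and lists were chosen with earlier results of these data known. Named genes were the members, the 3 genes nearest to each, and 8 genes of families in paralogous hosts. Other genes were named after their values were seen, apart from cell type markers. The alternatives were the column, scaling, filters, denominators, pseudocount, hairpin length, fixed edgeR dispersions and leaving out each library.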

Additional observations from a re-analysis of the deposited data

Results flagged for a closer look

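Reads mapping to several places lie outside the counts per gene, and they numbered 5244644 in replicate 1 and 6290303 in replicate 2. They made up 40.4% and 39.4% of the reads in the tables. Exact miR-26a-5p reads of up to 25 bases belong in that row, but the row is not split by sequence, so their number is not known.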

How the results depend on the processing

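Of 66 alternative values, 58 were counted as unchanged. They kept the direction and side of the threshold, moved by less than the spread, or were counts of called genes between 258 and 324. For levels, shares and ratios, leaving out either library could have had no other outcome under the rule on spread, so those values are no check. A larger pseudocount enters the log2 ratio and not the binomial test, so it could not change a call. Ratios within a library from the unstranded column could not change either, because each member has equal counts in the unstranded and same-strand columns. The SD of Mir26a-2, 318 CPM, exceeds its mean of 237 CPM, so no fall in its level could have been counted as a change. With all reads of the table as denominator, Mir26b averaged 1956 CPM and the family share was 0.204%. Mir26a-2 then averaged 77.2 CPM, and Mir26a-1 averaged 3.46 CPM in place of 10.6. These 2 falls were counted as unchanged only because each was within the SD, 7.37 CPM for Mir26a-1. An edgeR exact test with a fixed biological coefficient of variation (BCV) of 0.1 called 157 genes and one with 0.4 called 7, in place of 321 by the binomial test. At 0.1 Mir26b was no longer called (log2 ratio 0.28, adjusted p = 0.314 by the edgeR exact test, and 1 at 0.4), nor was Mir26a-1 at 0.4 (1.57, adjusted p = 0.855, against 0.000256 at 0.1). Mir26a-2 was called under both, with an adjusted p of 2.15e-05 by the edgeR exact test at 0.4. These alternatives allow for spread beyond counting error, which the binomial test does not, and the BCV estimated from these libraries was 0.481. Across other scalings, columns, filters and pseudocounts, the log2 ratio of Mir26a-2 ran from 5.12 to 5.22, that of Mir26a-1 from 1.45 to 1.56 and that of Mir26b from 0.22 to 0.28. Mir26a-1 was not tested at 100 counts or more. The mean level of Mir26a-2 rests on replicate 1, since it is 12.6 CPM without it and 462 CPM without replicate 2. The pair filter of 50 counts was chosen after seeing the data. No paired analysis was possible because the design holds 1 group.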
